A study of Saccharomyces cerevisiae with 6 samples.

Results

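Transcript levels of 10 genes that control the making of ribosomes were compared between a mutant and a reference strain of budding yeast, Saccharomyces cerevisiae. The genes were taken from a named list and found on the arrays through their systematic names: SFP1 (YLR403W), IFH1 (YLR223C), FHL1 (YPR104C), CRF1 (YDR223W), RAP1 (YNL216W), STB3 (YDR169C), DOT6 (YER088C), TOD6 (YBL054W), SCH9 (YHR205W) and HMO1 (YDR174W). All 10 of 10 were found among the 6256 genes with a probe. F3 is a strain made resistant to sulfur dioxide through evolutionary engineering, and it was set against its reference strain. The labels give no genotype, mating type or ancestry for either strain, and F3 is 1 selected mutant, so the comparison is between 1 mutant and 1 reference.

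Each strain was represented by 3 cultures, sampled in early exponential phase (OD600 near 1.0) in minimal medium at 30 °C with shaking at 150 rpm. The labels name an overnight growth in 100 mL of YPD (rich medium) as well, and no sulfite. Each culture gave 1 one-colour Agilent array. The design describes growth in triplicate, so the p-values set the strain difference against the spread between cultures.

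Making ribosomes takes up a large part of a growing yeast cell's transcription, and it is tuned to nutrients by the TORC1 and protein kinase A pathways. At the genes for ribosomal proteins, Rap1 and Fhl1 bind the promoter, Ifh1 joins Fhl1 as a coactivator, and Crf1, the paralog of Ifh1, can take its place as a corepressor. At the genes for ribosome assembly (ribosome biogenesis genes), Sfp1 activates, while Stb3, Dot6 and Tod6 repress by bringing in the Rpd3L histone deacetylase. The kinase Sch9, a target of TORC1, phosphorylates these repressors and keeps them from acting. Much of this control works through phosphorylation and nuclear entry of the proteins, which an array of transcripts does not measure.

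Levels are given as log2 processed signal after subtracting the array's own 75th percentile, and "rose" and "fell" refer to F3 on that scale. The choice matters here. That percentile lay between 8314 and 9534 intensity units in F3, against 2791 to 4973 in the reference. Scaling to the spike-in RNAs instead shifted the median difference of all genes to 1.76, against 0.05 with the 75th percentile, so the spike-in value stands beside the directions given below. Calls under spike-in scaling used each gene's own spread between arrays, because limma's moderation gave all genes 1 common SE of 0.30 there. This was chosen after seeing the data. The spike-in scale set the reference arrays further apart: SFP1 lay at −1.96, −1.45 and −2.43, and TOD6 at 0.02, 0.27 and −0.70. With the 75th percentile SFP1 lay at −1.73, −1.38 and −1.49, and TOD6 at 0.26, 0.33 and 0.24. Reference replicate 3 was the lowest reference array for every regulator on the spike-in scale. Each array has 1 spike-in factor for all genes, so the spike-in calls of different genes are not independent. The F3 arrays shared 1 slide and 1 scan day and the reference arrays were on 2 other slides scanned on another day, so the strain cannot be told apart from the scan day. The software's mark for a good spot grid was unset, and its negative control signal out of range, on all 3 F3 arrays and on no reference array. The part of these marks in the differences was not tested. In bulk RNA, fewer cells that express a gene and less RNA per cell cannot be told apart.

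All 10 regulators were well above background on all 6 arrays, and all 10 entered the test. In limma's fit across the 5948 genes tested, 8 of the 10 were called at an adjusted p under 0.05, against 79.7% of all genes tested. Of these, 3 rose (RAP1, STB3 and DOT6) and 5 fell (TOD6, IFH1, FHL1, HMO1 and SCH9), while SFP1 and CRF1 did not pass. Higher calls made up 41.5% and lower calls 38.2% of all genes tested. For 7 of the 10 regulators the F3 and reference values did not overlap, against 82.4% of all genes. The share of regulators that passed was thus close to that of the genome. Most differences were small: the median absolute log2 difference was 0.44 over the regulators and 0.65 over all genes tested. Only TOD6 and IFH1 were called at least 2-fold different, both lower in F3. Of all genes, 32.8% were called at that size, 16.2% lower and 16.6% higher. With spike-in scaling, 8 regulators were called higher and 1, TOD6, lower, against 80% and 2.91% of all genes.

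**Figure D1:**
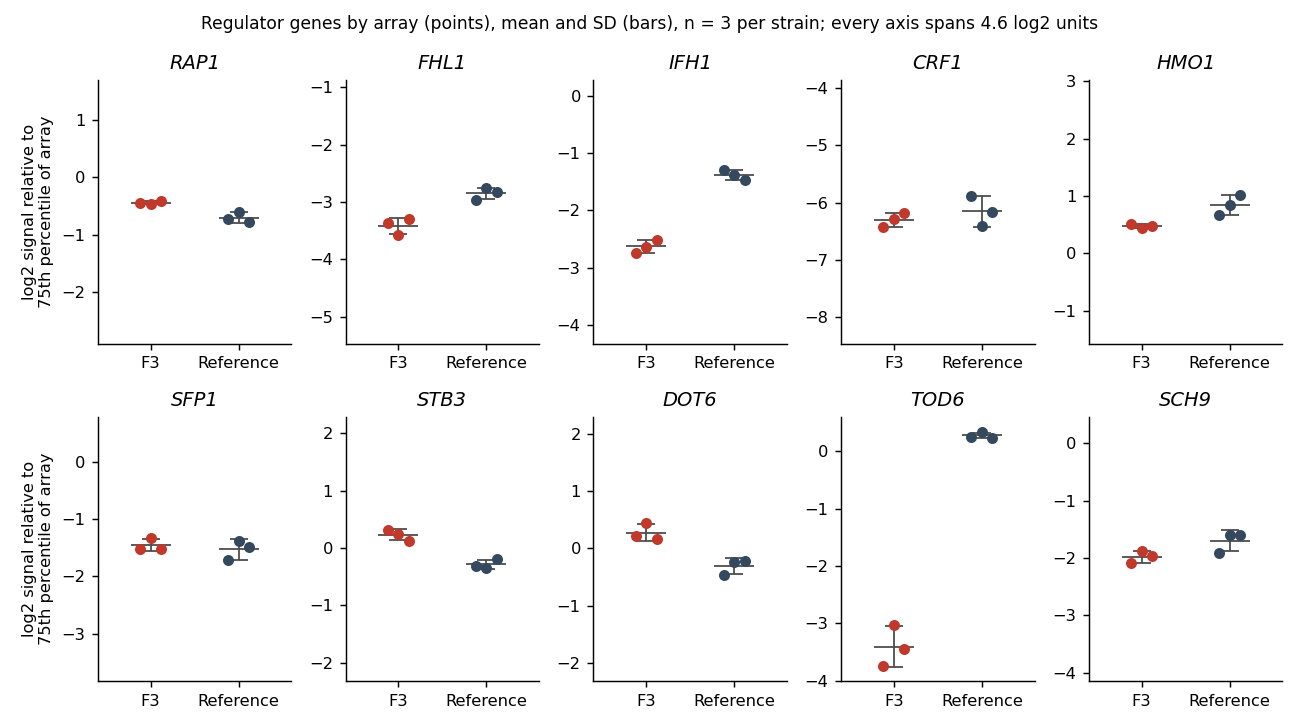
Level of each regulator gene on each array, in log2 signal above or below the array's 75th percentile, with F3 in red and the reference in dark blue; points are arrays and bars the mean and SD of 3 arrays. TOD6 stands between −3.74 and −3.03 in F3 and between 0.24 and 0.33 in the reference, while SFP1, CRF1 and SCH9 overlap between the strains.

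TOD6 and DOT6 are paralogs whose proteins bind the same promoter element of ribosome biogenesis genes and repress them. Their transcripts went in opposite directions. TOD6 had levels of −3.74, −3.03 and −3.44 on the F3 arrays, against 0.26, 0.33 and 0.24 on the reference arrays. The lowest reference value thus lay far above the highest F3 value, and the F3 arrays were spread more widely. TOD6 averaged −3.40 ± 0.35 in F3, against 0.28 ± 0.05 in reference arrays (SD, n = 3 each). It was 12.8-fold lower, with a log2 difference of −3.68 ± 0.16 (SE, limma adjusted p = 1.17e-07). It remained lower with spike-in scaling (−1.97 ± 0.35 SE, adjusted p = 0.00876 in limma's linear model without moderation).

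The decrease of TOD6 could be read from the unscaled signal as well. The processed signal of its spots reached 716, 1107 and 764 intensity units in F3, against 3339, 6148 and 5875 on the reference arrays. F3 was therefore lower although its arrays were the brighter ones. Only 34 of the 5948 genes tested had a lower difference, and 111 had a larger difference in either direction. TOD6 lies on chromosome II, whose 388 tested genes had a median difference of 0.03. The 6 tested genes next to it, 3 on each side, lay between −1.32 and 0.38, so no neighbour showed a difference of that size.

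DOT6 had levels of 0.21, 0.44 and 0.16 on the F3 arrays, against −0.46, −0.24 and −0.22 on the reference arrays. Every F3 value was above every reference value. DOT6 was higher in F3 by 1.5-fold (0.58 ± 0.10 SE on the log2 scale, limma adjusted p = 8.1e-04), and 2.29 higher with spike-in scaling. It was the largest increase among the 10, yet 27.6% of all genes tested had a higher difference. STB3, which encodes the repressor that binds another element of these promoters, rose by a like amount. Its levels were 0.31, 0.25 and 0.12 on the F3 arrays, against −0.31, −0.35 and −0.20 on the reference arrays, again with no overlap. The log2 difference of STB3 was 0.51 ± 0.08 (SE, limma adjusted p = 4.3e-04), or 1.43-fold, and 2.23 with spike-in scaling.

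SFP1 encodes the zinc-finger activator that works at the same assembly genes. Its levels were −1.52, −1.33 and −1.52 on the F3 arrays, against −1.73, −1.38 and −1.49 on the reference arrays. The strains overlapped, and the log2 difference of 0.08 ± 0.11 (SE, limma adjusted p = 0.509) had a 95% interval from −0.17 to 0.32. With spike-in scaling it was 1.79 higher, close to the shift of all genes.

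The factors at ribosomal protein promoters differed among themselves. IFH1, the coactivator, had levels of −2.75, −2.63 and −2.51 on the F3 arrays, against −1.30, −1.38 and −1.48 on the reference arrays. The groups were more than 1 log2 unit apart at their nearest values. IFH1 was 2.37-fold lower in F3 by the 75th percentile (−1.24 ± 0.09 SE, limma adjusted p = 2.35e-06), but 0.47 above the reference and not called with spike-in scaling (adjusted p = 0.232, limma without moderation). Among all genes tested 12.3% had a lower difference than IFH1.

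FHL1, the forkhead protein that recruits Ifh1, had levels of −3.37, −3.58 and −3.30 on the F3 arrays, against −2.96, −2.76 and −2.83 on the reference arrays. All F3 values were below all reference values. FHL1 was 1.48-fold lower in F3 (−0.56 ± 0.10 SE, limma adjusted p = 6.45e-04), or 1.15 higher with spike-in scaling. CRF1, the corepressor, gave a weak signal. The spot median of CRF1 was between 211.5 and 232.5 intensity units in F3 and between 82.5 and 113 in the reference, over local backgrounds between 36.8 and 40.5. Its levels were −6.43, −6.29 and −6.19 on the F3 arrays, against −5.88, −6.41 and −6.17 on the reference arrays, which overlapped. The log2 difference of CRF1 was −0.15 ± 0.13 (SE, limma adjusted p = 0.33) with a 95% interval from −0.46 to 0.16, or 1.56 with spike-in scaling. The result for CRF1 depended on the processing: after normexp correction it was called lower (−0.55, adjusted p = 0.0164), as it was with quantile normalization (−0.51, adjusted p = 0.00233).

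RAP1, which binds telomeres and the promoters of many growth genes, rose slightly. Its levels were −0.44, −0.46 and −0.42 on the F3 arrays, against −0.73, −0.60 and −0.78 on the reference arrays. The strains did not overlap, and the 1.20-fold difference of RAP1 (0.26 ± 0.08 SE, limma adjusted p = 0.0115; 1.97 with spike-in scaling) was exceeded in size by 77.2% of all genes tested. HMO1 encodes a high mobility group protein found at ribosomal protein promoters and at ribosomal DNA. Its levels were 0.52, 0.45 and 0.47 on the F3 arrays, against 0.66, 0.85 and 1.01 on the reference arrays. The F3 arrays lay within 0.07 of each other, while the reference arrays covered 0.35. HMO1 was 1.28-fold lower in F3 (−0.36 ± 0.10 SE, limma adjusted p = 0.00844), or 1.35 higher with spike-in scaling.

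SCH9, the kinase, had levels of −2.09, −1.88 and −1.96 on the F3 arrays, against −1.91, −1.59 and −1.59 on the reference arrays. The strains overlapped, since the dimmest reference array fell within the F3 range. The log2 difference of SCH9 was −0.28 ± 0.11 (SE, limma adjusted p = 0.0385), a 1.22-fold decrease that became 1.43 higher with spike-in scaling. The call was lost without F3 replicate 1 (−0.22), F3 replicate 3 (−0.29), reference replicate 2 (−0.23) or reference replicate 3 (−0.23), with adjusted p between 0.0765 and 0.13.

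**Figure D2:**
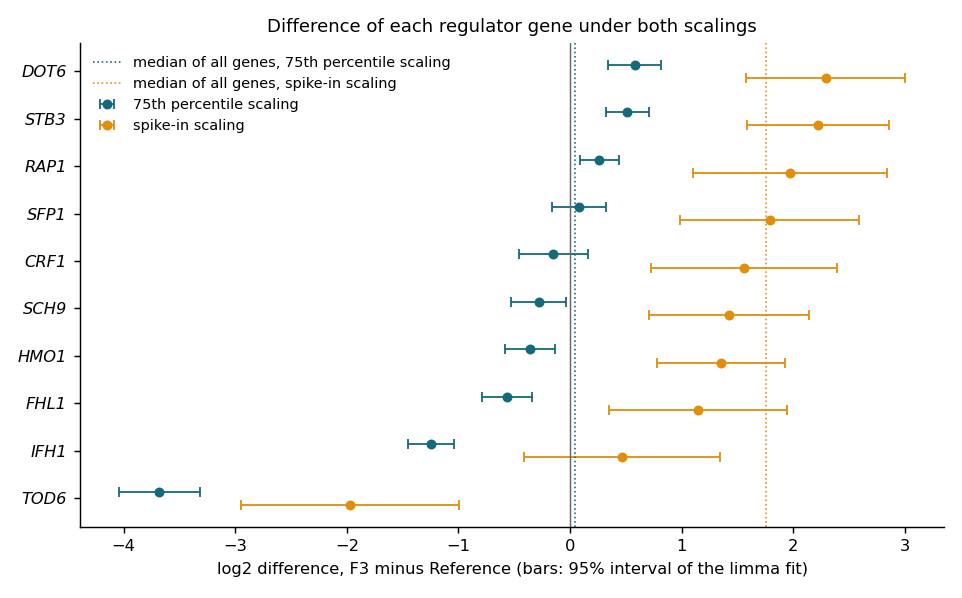
Log2 difference of each regulator gene, F3 minus reference, with 95% intervals (limma; without moderation for spike-in scaling), under scaling to the 75th percentile (blue-green) and to the spike-in RNAs (orange); dotted lines mark the median of all genes tested at 0.05 and 1.76. TOD6 is below 0 under both scalings, and DOT6, STB3, RAP1 and SFP1 are above 0 under both. IFH1, FHL1, HMO1, SCH9 and CRF1 change sign. SFP1 and CRF1 were not called by the 75th percentile.

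Grouped by role, the activators and the repressors did not move as blocks. Of the 5 activators, 3 fell (IFH1, FHL1 and HMO1), RAP1 rose and SFP1 did not pass. Their median log2 difference was −0.36. With spike-in scaling, all 5 lay above 0, with a median of 1.35. Of the 4 repressors, DOT6 and STB3 rose, TOD6 fell and CRF1 did not pass, and their differences lay between −3.68 and 0.58 (median 0.18, or 1.89 by the spike-in RNAs).

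The log2 ratio of 2 genes on the same array does not depend on a scaling by 1 factor per array. It was computed for 5 pairs of the regulators, and the difference of the ratio between strains, not its absolute value, can be read, since each gene has its own probe. The DOT6 over TOD6 ratio was 3.95, 3.47 and 3.61 on the F3 arrays, against −0.72, −0.58 and −0.46 on the reference arrays. This is a difference of 4.26, or 19.2-fold in favour of DOT6. The CRF1 over IFH1 ratio was −3.69, −3.66 and −3.68 on the F3 arrays, against −4.58, −5.03 and −4.70 on the reference arrays, a difference of 1.10 towards the corepressor. By the 75th percentile IFH1 passed the test and CRF1 did not, and with spike-in scaling CRF1 passed and IFH1 did not. The signal of CRF1 was weak, and the gap between these genes depended on the processing. After normexp correction CRF1 had a difference of −0.55 and IFH1 of −1.28. With quantile normalization CRF1 had −0.51 and IFH1 −1.27. Both genes were called lower in these fits, with a smaller gap between them than 1.10.

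The other pairs differed by less than 1 log2 unit. The IFH1 over FHL1 ratio differed by −0.68: it averaged 0.79 ± 0.16 in F3, against 1.47 ± 0.17 in reference arrays (SD, n = 3 each). The HMO1 over RAP1 ratio differed by −0.62, with means of 0.92 ± 0.04 in F3 and 1.54 ± 0.21 in the reference. The STB3 over SFP1 ratio differed by 0.44, with means of 1.68 ± 0.13 in F3 and 1.25 ± 0.20 in the reference. In each of the 5 pairs the strains did not overlap. Of all single genes tested, 82.4% did not overlap either, and the share over all gene pairs was not computed. The exact two-sided permutation test gave p = 0.1 for every pair, also after Benjamini-Hochberg adjustment over the 5 (adjusted p = 0.1), and this is the smallest p that 3 arrays against 3 can give.

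**Figure D3:**
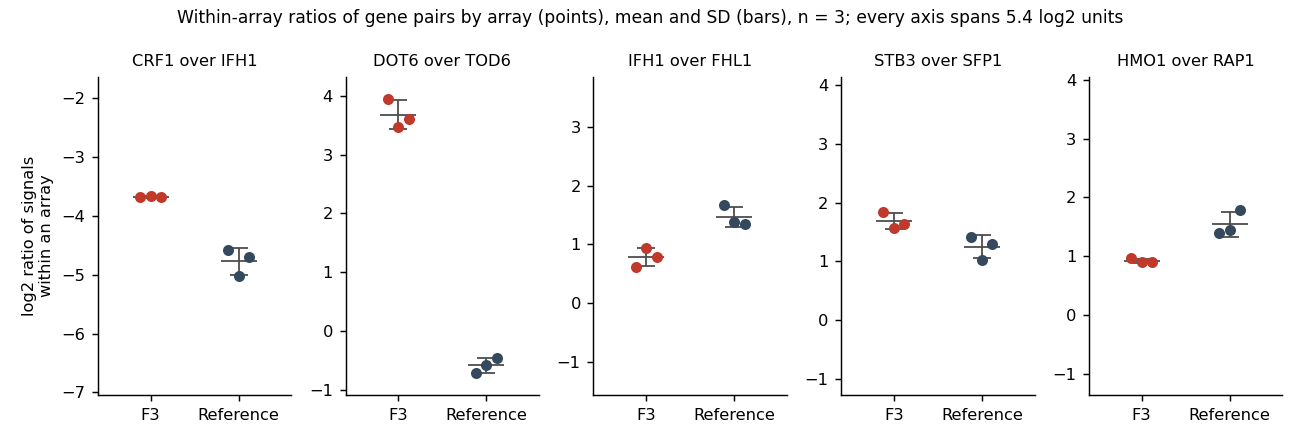
Log2 ratio of the signals of 2 regulator genes within each array, F3 in red and the reference in dark blue; points are arrays and bars the mean and SD of 3 arrays. The DOT6 over TOD6 ratio shows the widest gap (means 3.68 in F3 and −0.58 in the reference), and no pair overlaps between the strains.

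Most genes that these regulators act on were lower in F3 by the 75th percentile. All 102 ribosome biogenesis genes tested were called lower, against 38.2% of all genes. The 102 had a median log2 difference of −2.73, against 0.05 over all genes. With spike-in scaling their median was −1.02, with 57 called lower and 0 higher, against 2.91% and 80% of all genes. SDA1, which takes part in assembly of the large subunit, fell by 5.57 (SE 0.14, limma adjusted p = 1.13e-08), and DBP2, an RNA helicase, had a difference of −5.49 (SE 0.13, adjusted p = 7.77e-09). Both were lower with spike-in scaling as well (−3.86 and −3.78). Only 6 of the 102 had a lower difference than TOD6 (−3.68). TOD6 thus lay at the low end of the range of these genes.

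Of the 137 ribosomal protein genes, 128 fell, 1 rose and 8 did not pass. Over all genes 38.2% were called lower and 41.5% higher. The 137 had a median of −0.92, or 0.79 with spike-in scaling. With that scaling 70 of the 137 were called higher and 0 lower, against 80% of all genes called higher. RPS28B fell by 2.09 (SE 0.13) and RPL41B by 1.82 (SE 0.19), and neither was called with spike-in scaling (−0.38 and −0.11). RPL15B rose by 0.68 (SE 0.08), or 2.39 with spike-in scaling. Many of these genes have near-identical paralogs that the probes may not separate, so which copy changed is uncertain.

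Genes upstream of or beside the regulators were taken as further lists. The first held 21 genes for TORC1, the GTPases that signal nutrients to it, the SEA complex and the phosphatase branch. It mixes activators and inhibitors of TORC1. Of the 21, 6 rose, 5 fell and 10 did not pass (median 0.11), so that 52.4% were called, against 79.7% of all genes. No gene of this list differed 2-fold. LST8, a TORC1 subunit, rose by 0.85 (SE 0.11, limma adjusted p = 1.36e-04), TAP42, the phosphatase regulator, by 0.70 (SE 0.08) and TOR1, the kinase, by 0.62 (SE 0.09). With spike-in scaling these 3 lay at 2.56, 2.41 and 2.33, and all 21 genes of the list were called higher, against 80% of all genes.

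The kinases and other factors upstream of or beside Sch9 and protein kinase A were higher in most cases. This list also mixes activators and inhibitors, so its counts do not give a direction of signalling. Of 18 tested, 15 rose and 3 fell (median 0.98), against 41.5% and 38.2% of all genes. At least 2-fold increases were called for 9 of the 18, against 16.6% of all genes. YPK2, a kinase related to Sch9, rose by 2.56 (SE 0.09, limma adjusted p = 3.93e-08), or 4.27 with spike-in scaling. TPK2, which encodes a catalytic subunit of protein kinase A, rose by 2.32 (SE 0.07, limma adjusted p = 3.22e-08), or 4.03 with spike-in scaling. The catalytic subunit genes did not all rise: TPK3 fell by 1.71 (SE 0.07), or lay at 0.00064 with spike-in scaling. BCY1, which encodes the inhibitory subunit, rose by 1.43 (SE 0.09), or 3.14 with spike-in scaling. SCH9 itself had a difference of −0.28. With spike-in scaling 17 of the 18 were called higher and 0 lower (median 2.69), against 80% and 2.91% of all genes.

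Partners of the regulators at promoters went both ways by the 75th percentile, and no gene of the next 3 lists was called lower with spike-in scaling. Among 15 general regulatory factors and partners of Ifh1, 6 rose, 5 fell and 4 did not pass (median 0.03), so that 73.3% were called, against 79.7% of all genes. With spike-in scaling 13 were called higher and 0 lower, against 80% and 2.91% of all genes. ABF1, a factor that binds some ribosomal protein promoters, rose by 1.25 (SE 0.08), or 2.96 with spike-in scaling. UTP22, an rRNA processing protein that holds Ifh1 in a complex away from promoters, fell (−1.43 ± 0.08 SE, or 0.28 with spike-in scaling). NHP6A, a high mobility group protein, fell as well (−1.23 ± 0.10 SE, or 0.48 with spike-in scaling). NHP6B, the paralog of NHP6A, rose by 0.78 (SE 0.08), or 2.49 with spike-in scaling. Whether the probes separate these paralogs was not tested.

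Of 12 genes for the Rpd3L deacetylase, which Stb3, Dot6 and Tod6 recruit, 5 rose, 3 fell and 4 did not pass (median 0.13). Thus 66.7% were called, against 79.7% of all genes. With spike-in scaling all 12 were called higher, against 80% of all genes. The subunit gene PHO23 rose by 1.20 (SE 0.08) and lay at 2.91 by the spike-in RNAs. The genes SAP30 (−0.68 ± 0.07 SE) and UME1 (−0.63 ± 0.08 SE) fell, or lay at 1.03 and 1.08 with spike-in scaling. Among 14 genes for the NuA4 and SAGA acetyltransferases, which act at active promoters, 6 rose, 2 fell and 6 did not pass (median 0.12), so that 57.1% were called, against 79.7% of all genes. With spike-in scaling 13 of the 14 were called higher and 0 lower, against 80% and 2.91% of all genes. TRA1, a subunit of both, rose by 1.33 (SE 0.14) and YNG2 by 0.91 (SE 0.08), or 3.04 and 2.62 with spike-in scaling. SPT20 fell (−0.82 ± 0.10 SE, or 0.89 with spike-in scaling).

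**Figure D4:**
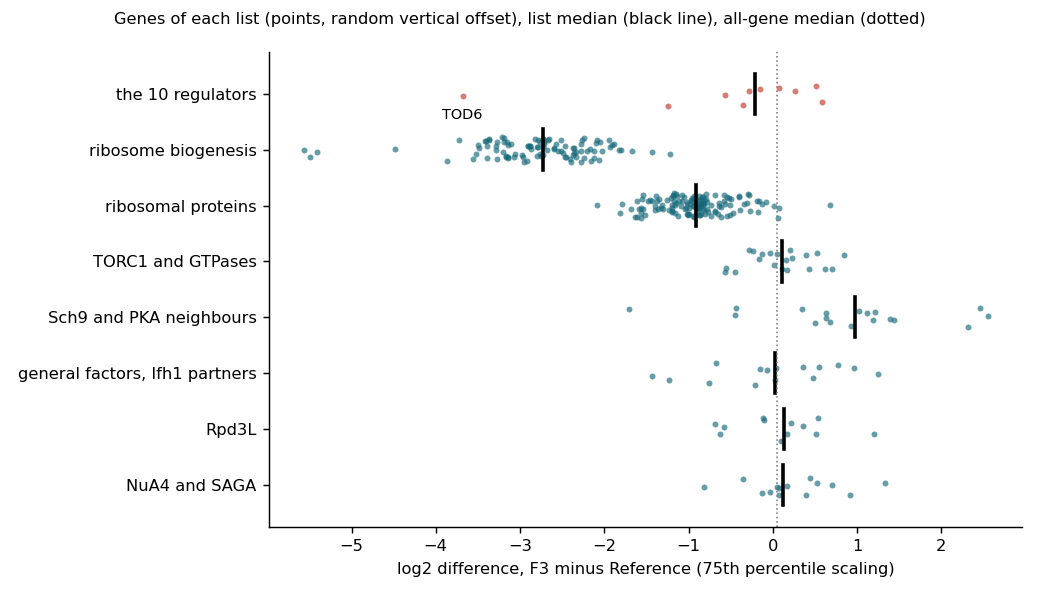
Log2 difference, F3 minus reference (75th percentile scaling), of each tested gene of the regulator list (red) and of 7 related lists (blue-green), with list medians as black lines and the median of all genes at 0.05 as a dotted line; the vertical offset of points is random. The ribosome biogenesis genes lie between −5.57 and −1.22, and TOD6 is the one regulator within that range apart from IFH1.

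The genes with profiles nearest to the outermost regulators were found by the Euclidean distance over the 6 arrays, each gene centred on its own mean. Nearest to TOD6 were SYO1 (distance 0.17, log2 difference −3.61), which carries ribosomal proteins into the nucleus, AQR1 (0.20, −3.76), a transporter of the plasma membrane, and BMT5 (0.20, −3.60), an rRNA methyltransferase. Nearest to DOT6 were NUS1 (distance 0.09, log2 difference 0.60), which takes part in dolichol synthesis, RCN1 (0.10, 0.59), a regulator of calcineurin, and CDD1 (0.10, 0.57), a cytidine deaminase. With spike-in scaling SYO1, AQR1 and BMT5 lay at −1.90, −2.05 and −1.89, and NUS1, RCN1 and CDD1 between 2.28 and 2.31. Because the strain difference makes up most of each profile, the distance ranks genes mainly by that difference.

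The chromosomes that carry the regulators had median differences between −0.11 (VIII, with SCH9) and 0.07 (XVI, with FHL1). STB3, HMO1 and CRF1 share chromosome IV (median 0.06). IFH1 and SFP1 share chromosome XII (median 0.03), where IFH1 fell and SFP1 did not pass. The 6 tested genes next to IFH1 lay between −2.40 and 0.27, a range that holds the value of IFH1. Those next to SFP1 lay between −1.96 and 0.17. In both sets 5 were called lower and 1 higher, against 38.2% of all genes called lower. Next to any other regulator at most 4 of 6 were called lower (DOT6). As a check of the cells, 9 of 10 markers of mating type and sporulation were tested. Over all genes 41.5% were called higher and 38.2% lower, or 80% and 2.91% with spike-in scaling. Of the 9 markers, 3 were called higher and 6 lower (5 and 0 with spike-in scaling). Of these, STE2, SPS4, MF(ALPHA)1 and MFA1 were at least 2-fold lower (−2.13, −1.74, −1.40 and −1.33, or −0.42, −0.03, 0.31 and 0.38 with spike-in scaling) and SPS100 at least 2-fold higher (2.04, or 3.75 with spike-in scaling). MF(ALPHA)1 was −0.61 after normexp and quantile normalization, and so no longer 2-fold lower. SPS100 was 1.17 after normexp correction and 1.24 after normexp and quantile normalization. The part of these markers in the differences of the regulators was not tested.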

How the data were processed

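The 6 arrays were grouped by their titles, 3 per strain. RNA (0.2 µg) was labelled with Cy3, per the labels' protocols. Per the file headers, Feature Extraction 10.7.3.1 (Agilent) read the authors' scans, and the submitters' processing notes name version 9.1. The deposited processed signal is an intensity, background-subtracted and detrended within the array and not scaled between arrays. The authors' deposited table holds log2 values centred on each probe's median. Against the scanner values centred likewise its columns had r between 0.991 and 0.995, with column medians of 0.00975, 0 and 0.011 (F3) and −0.00551, −0.00555 and −0.0141 (reference); its scale and direction follow from this, and its scaling between arrays stays unknown.

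The mean log2 signal of a probe's 2 spots was taken, less its array's 75th percentile. Genes well above background on at least 3 of 6 arrays were tested, 5948 of 6256, with limma 3.58.1 in R 4.3.3 (two-sided, Benjamini-Hochberg, threshold 0.05). With spike-in scaling eBayes estimated an unlimited prior and 1 SE (0.30) for every gene, and the cause was not tested. Its p-values then use far more degrees of freedom than 6 arrays give. The linear model with each gene's own spread (4 residual degrees of freedom) was therefore added after seeing the data and gives the spike-in calls of the report. The fit was also run on simulated data with few changed genes and no factor shared by the genes of an array. That setting differs from these data, in which most genes were called. Pair ratios were tested by exact permutation. Names came from the RefSeq table of assembly R64: 5756 systematic names matched by locus tag, 23 by synonym, and 477 kept the file's name. Its build may differ from the array's, so no coordinates are given, and no sequences were used here. The number of arrays limits the precision.

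The regulators, the lists and the naming rule were chosen with earlier results of these data known. Named genes were the 10 regulators, the 3 called genes of largest absolute difference in each list, the 2 largest decreases and up to 2 increases among ribosomal protein and biogenesis genes, the 3 nearest genes to the outermost regulators, and markers called at least 2-fold. One gene that this rule names is not reported here. RPP1, a subunit of RNase P that the name pattern for ribosomal proteins had caught, was taken out after its value was seen. Alternatives were other scalings (median, quantile, 7 of 10 spike-in probes), normexp background correction, the deposited table, other filters, a replicate block, the slide as a random block, an intensity trend and leaving out each array.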

Additional observations from a re-analysis of the deposited data

How the results depend on the processing

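With spike-in scaling IFH1 (0.47), FHL1 (1.15), HMO1 (1.35), SCH9 (1.43) and CRF1 (1.56) turned above 0, SFP1 was called (1.79), 8 regulators were called higher and 1 lower, and over all genes 4760 were called higher and 173 lower with each gene's own spread, or 5092 and 255 with moderation, against 2467 and 2275 with the 75th percentile (96.5% or 95.2% of calls higher, against 52.0%). The regulators' counts were 8 and 1 in both of these fits. Under spike-in scaling higher and lower calls were 21 and 0 for TORC1, 12 and 0 for Rpd3L, 13 and 0 (14 and 0 with moderation) for NuA4 and SAGA, 13 and 0 for the general factors, 70 and 0 (93 and 0 with moderation) for ribosomal proteins, 0 and 57 (0 and 77 with moderation) for ribosome biogenesis genes, and 0 lower for the kinases, and UTP22 (0.28), NHP6A (0.48), SAP30 (1.03), UME1 (1.08), SPT20 (0.89), MFA1 (0.38) and MF(ALPHA)1 (0.31) turned above 0. With quantile normalization 2 ribosomal protein genes were called higher. CRF1 was called lower with normexp (−0.55), normexp and quantile (−0.25), quantile normalization (−0.51) and the deposited table (−0.48). The cause of these changes was not tested.

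Leaving out 1 array gave −3.87 to −3.52 for TOD6, −1.30 to −1.19 for IFH1, −0.62 to −0.48 for FHL1, −0.45 to −0.27 for HMO1, −0.39 to −0.22 for SCH9, −0.28 to −0.01 for CRF1, −0.02 to 0.15 for SFP1, 0.23 to 0.31 for RAP1, 0.47 to 0.57 for STB3 and 0.50 to 0.63 for DOT6. SFP1 was below 0 without reference replicate 1 (−0.017). In these fits 3 regulators were called higher and 4 to 5 lower, with 2309 to 2427 and 2125 to 2237 of all genes. Pair ratios ranged over 4.13 to 4.36 (DOT6 over TOD6), 0.97 to 1.19 (CRF1 over IFH1), −0.76 to −0.58 (IFH1 over FHL1), −0.70 to −0.50 (HMO1 over RAP1) and 0.33 to 0.52 (STB3 over SFP1), and no pair turned sign under any alternative run.

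The replicate numbers did not pair the arrays: deviations of same-numbered arrays correlated at −0.15, 0.08 and −0.25. With a replicate block 2384 genes were called higher and 2211 lower, and no call on a regulator changed. TOD6 then had a log2 difference of −3.68 with the block.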
